A study of Mus musculus with 18 samples.

Results

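The keratin genes were taken as the probe sets whose platform gene symbol is Krt followed by digits and at most 1 letter, which left out the keratin-associated proteins and other Krt-named genes. This gave 49 probe sets for 49 genes, out of 19572 probe sets with a gene symbol. They were followed in skin and pituitary of C57BL/6 mice that were wild type, lacked the noncoding transcript of the MIR205HG locus (lncKO) or lacked the microRNA miR-205 (miR-205 KO). Each of the 6 groups held 3 Clariom S arrays, numbered 1 to 9 in skin and 10 to 18 in pituitary as in the labels. All mice are labelled female and aged 5 to 6 weeks, without a treatment. The protocol describes a frozen piece of ear, so the skin samples hold cartilage, fat and muscle as well as epidermis and hair follicles. How the alleles were made, and whether the arrays of a group came from separate mice, is not said in the labels.

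Keratins are the intermediate filament proteins of epithelial cells. A filament is built from pairs of a type I keratin and a type II keratin, and each cell type uses its own pairs. Dividing basal keratinocytes make Krt5 with Krt14, cells that leave the basal layer switch to Krt1 or Krt2 with Krt10, and simple epithelia such as glands make Krt8 with Krt18. Growing hair follicles add keratins of the inner root sheath, a sleeve that moulds the hair, and of the hair shaft, whereas resting follicles make little of either. MiR-205 is abundant in stratified epithelia. Its main mature form is shown with the seed, bases 2 to 8, in capitals, because this is the molecule that one of the lines lacks. RefSeq places it at chr1:193507503-193507524 of GRCm38.p6, on the minus strand.
mmu-miR-205-5p: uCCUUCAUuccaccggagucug

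The 49 genes lie in 2 clusters in RefSeq, with 27 genes on chromosome 11, the type I cluster, and 22 on chromosome 15, which holds the type II genes and Krt18. In skin, intensities of keratin probe sets ran from 6 to 753341. Here 27 of the 49 read above an intensity of 16 on all 9 skin arrays, and Krt74, Krt76 and Krt84 did so on none. In pituitary the range was 6 to 1926, with 13 keratins above 16 on all 9 arrays and 21 on none. An intensity of 16 serves below as the mark of a low reading, since the deposited table gives no background level. Probe sets differ in sensitivity, so levels are compared between arrays and not between genes.

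The labelled tissues carried their markers. All 10 keratinocyte genes listed apart from the keratins read above 16 on each skin array, and all 10 pituitary hormone and secretory genes on each pituitary array. On the pituitary arrays 4 to 7 of the keratinocyte genes read above 16 too. Their summed intensity was 683 to 906 there, against 333373 to 538868 in skin. Wild type 1 of skin stood apart from wild type 2 and 3 in its pituitary genes, with 9 of the 10 above 16 and a summed intensity of 2761 against 158 to 237 on the other 8 skin arrays, of which the growth hormone gene Gh gave 2501. In pituitary the same sum lay between 3306983 and 4232730. The 3 Y-linked genes listed summed to 19 to 31 on skin arrays and to 2828 to 4027 on pituitary arrays, which does not match the label female for the pituitary samples. In comparisons between the tissues, of levels or of knockout effects, tissue therefore cannot be told apart from the sex of the mice.

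**Figure D1:**
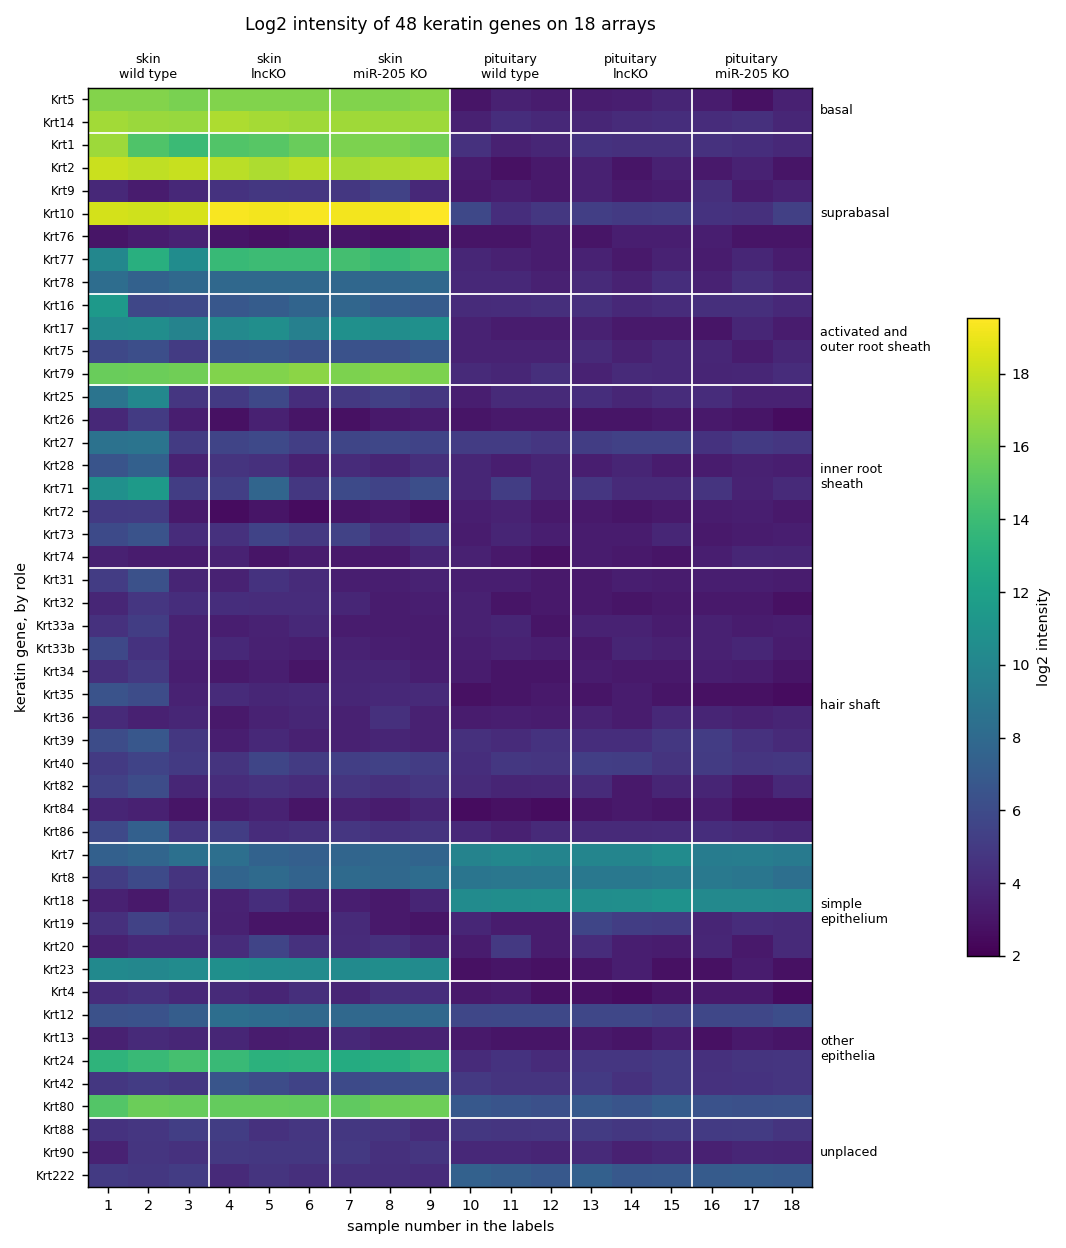
Log2 intensity of 48 keratin genes (rows, ordered by role) on the 18 arrays (columns, by sample number), with white lines between groups and between roles. Epidermal keratins are bright on all 9 skin arrays, inner root sheath keratins on wild type 1 and 2, and Krt7, Krt8 and Krt18 on the pituitary arrays.

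Between wild-type pituitary and wild-type skin, most keratins were lower in the gland and a few simple-epithelium keratins were higher. Limma called 36 of the 49 lower and 4 higher, 81.6% in all. Of all 19572 probe sets 52.1% were called, 26.4% as lower and 25.7% as higher. The 4 that were higher in pituitary were Krt8, its partner Krt18, Krt7, a type II keratin of glands and ducts, and Krt222, a keratin-like gene. Krt18 read 12, 9 and 18 in wild-type skin and 1431, 1512 and 1612 in wild-type pituitary, a difference of 6.92 ± 0.24 on the log2 scale (SE, limma, adjusted p = 1.47e-15). Krt8 differed by 3.67 ± 0.26 (adjusted p = 1.48e-10), Krt7 by 2.10 ± 0.28 (1.5e-06) and Krt222 by 2.17 ± 0.21 (1.43e-08). At the other end, the epidermal keratins Krt2, Krt10, Krt14 and Krt5 were lower in pituitary, with log2 differences of -14.91, -13.40, -12.96 and -12.87, and each read 55 or less on all 9 pituitary arrays. Krt19, Krt23 and the other epidermal and hair keratins that were called were lower in pituitary too. The log2 difference of Krt16 was -3.38, but -1.51 without wild type 1 of skin, and its adjusted p was 0.0511 in a fit of the compared groups alone. Krt33a, Krt33b and Krt72 also lost the call in that fit (limma, adjusted p = 0.0507, 0.0586 and 0.12). Without wild type 2 of skin the calls of Krt33a (0.0518) and Krt72 (0.147) ended, and without wild type 1 those of Krt33b (0.0763) and Krt72 (0.13).

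In knockout skin the question was which keratins differ without the noncoding RNA or without the microRNA. Both knockouts were set against the same 3 wild-type arrays, so the 2 comparisons are not independent. In lncKO skin 6 keratins rose and 4 fell, 20.4% of the 49, against 15.4% of all probe sets (6.21% higher and 9.17% lower). In miR-205 KO skin 5 rose and 5 fell, again 20.4%, against 16.8% (6.79% higher and 10% lower). These shares are near the background and say nothing particular about keratins. Over all probe sets the calls leaned to lower in the knockouts (1215 higher and 1794 lower in lncKO, 1328 and 1965 in miR-205 KO), and evened out with quantile normalization (1539 and 1514, 1643 and 1629). The median log2 fold change of all 49 keratins was -0.16 in both comparisons, and that of all probe sets -0.07. Cartilage genes (5 of 8 rose in each knockout), fat genes (3 of 6) and sebaceous gland genes (2 of 6) were higher on the same knockout arrays. Their summed intensities ran from 12030 to 16242 in wild type and 38062 to 71495 in the knockouts for cartilage, from 75396 to 124864 and 146016 to 257698 for fat, and from 681265 to 902318 and 1194314 to 1396350 for sebaceous genes. Sums weigh the brightest probe sets most, such as sebaceous Scd1, which did not pass in lncKO (limma, adjusted p = 0.0716). By mean log2 intensity, cartilage and sebaceous genes stayed apart, but fat genes gave 11.64 on both wild type 2 and miR-205 KO 7. Of 10 keratinocyte genes outside the family 1 rose and 1 fell in each knockout, of 8 muscle genes 1 rose and 1 fell in lncKO and 2 rose in miR-205 KO, of 6 pigment cell genes 0 and 1 rose, and of 10 pituitary genes 1 rose in each and 2 and 3 fell. The part of the tissue makeup of the ear pieces in the keratin values was not tested, and fewer cells of a type cannot be told apart from less RNA per cell.

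**Figure D2:**
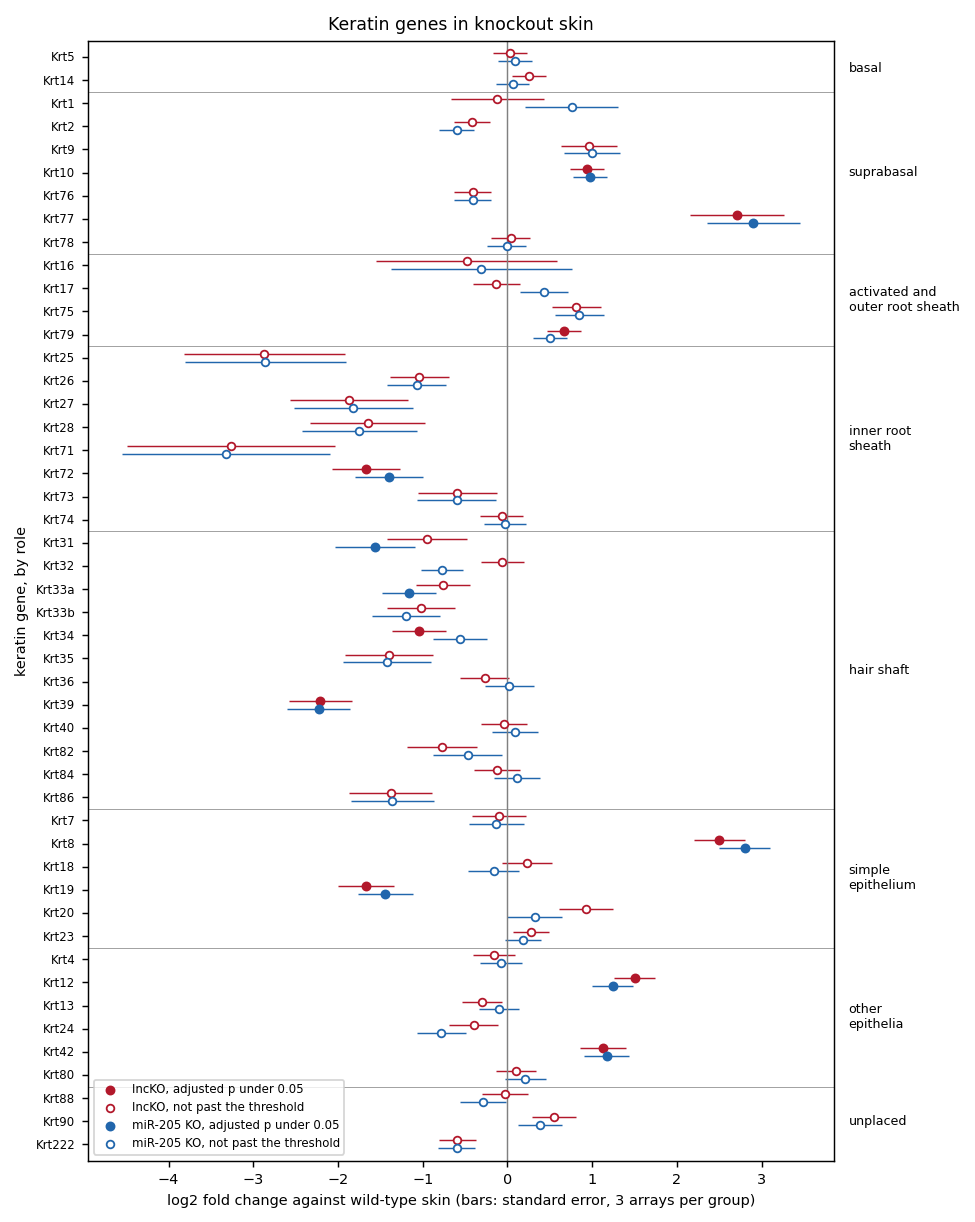
Log2 fold change against wild-type skin of 48 keratin genes in lncKO skin (red) and miR-205 KO skin (blue), with standard errors, 3 arrays per group; filled points passed an adjusted p of 0.05. Krt8 and Krt77 lie farthest to the right and Krt71 and Krt25 farthest to the left, the latter with wide errors.

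The basal keratins did not pass the test in either knockout. Krt5 read 78356, 79896 and 64494 in wild type, 73952, 76371 and 76776 in lncKO and 74623, 74513 and 88378 in miR-205 KO. Krt14 read 137172, 123667 and 113614 in wild type, 168942, 145301 and 131903 in lncKO and 135821, 127473 and 126500 in miR-205 KO. The groups overlapped for both genes. For Krt5 the 95% interval of the log2 fold change was -0.40 to 0.47 in lncKO and -0.34 to 0.53 in miR-205 KO. Krt15, a keratin of basal cells and of the hair follicle bulge, read 12245, 13861 and 21018 in wild type against 14378, 16936 and 8771 in lncKO, which overlapped as well.

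Among 7 keratins of the suprabasal layers, Krt10 and Krt77 rose in both knockouts and the other 5 did not pass. Krt10, the type I keratin of differentiating epidermis, read 345918, 314730 and 355555 in wild type, 678979, 619688 and 654575 in lncKO and 621186, 620055 and 753341 in miR-205 KO. The knockout arrays all lay above the wild-type arrays, at 1.92 times (lncKO) and 1.96 times (miR-205 KO) the wild-type level. The Krt10 call depended on the scaling, as quantile normalization gave log2 changes of 0.45 (limma, adjusted p = 0.14) and 0.53 (adjusted p = 0.0771). Krt77, a type II keratin of the suprabasal epidermis, read 1090, 8505 and 1502 in wild type, 14508, 16264 and 16677 in lncKO and 20325, 15042 and 18983 in miR-205 KO. Wild type 2 lay between the other wild-type arrays and the knockouts, and no wild-type array reached a knockout one. Krt77 rose by 2.71 ± 0.55 on the log2 scale in lncKO (adjusted p = 0.0067) and by 2.90 ± 0.55 in miR-205 KO (0.00459), and a floor at an intensity of 16 for all probe sets left the changes alike but ended the calls (0.0665 and 0.0529).

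Krt1 and Krt2, type II partners of Krt10, did not rise with it. Krt1 read 126241, 27164 and 15850 in wild type, 28295, 32398 and 46334 in lncKO and 67204, 69021 and 57179 in miR-205 KO. Wild type 1 was the highest of all 9 arrays and wild type 3 the lowest. Without wild type 1, the Krt1 change in miR-205 KO was 1.63 on the log2 scale (limma, adjusted p = 0.00544), against 0.76 ± 0.55 (adjusted p = 0.361) with all arrays. The fit without wild type 1 was singled out after its values were seen, so its result is a description. Krt2, the keratin of upper layers that is prominent in mouse ear, read 287352, 235245 and 269571 in wild type, 211937, 171135 and 211422 in lncKO and 151108, 173988 and 199522 in miR-205 KO. All 6 knockout arrays lay below the 3 wild-type arrays, but the changes of -0.42 ± 0.21 and -0.60 ± 0.21 missed the threshold (adjusted p = 0.202 and 0.0705). With quantile normalization Krt2 passed as lower in both (adjusted p = 0.0386 and 0.0108), and with a floor at 16 in miR-205 KO (0.0421). Krt9, of palm and sole skin, read 44 or less and Krt76, of the palate, 13 or less on every skin array.

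The upstream sequences of Krt10 and Krt77 are shown because these genes rose in both lines. They are the 250 bases before the RefSeq transcription start in GRCm38.p6, on the minus strand at chr11:99389365-99389614 and chr15:101869706-101869955, with the motif TATAAA in capitals where it occurs.
Krt10: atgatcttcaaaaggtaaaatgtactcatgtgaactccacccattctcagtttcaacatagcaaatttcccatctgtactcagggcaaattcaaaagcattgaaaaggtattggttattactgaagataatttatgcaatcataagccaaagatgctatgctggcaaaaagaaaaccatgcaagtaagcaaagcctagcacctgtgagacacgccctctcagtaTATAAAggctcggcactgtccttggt
Krt77: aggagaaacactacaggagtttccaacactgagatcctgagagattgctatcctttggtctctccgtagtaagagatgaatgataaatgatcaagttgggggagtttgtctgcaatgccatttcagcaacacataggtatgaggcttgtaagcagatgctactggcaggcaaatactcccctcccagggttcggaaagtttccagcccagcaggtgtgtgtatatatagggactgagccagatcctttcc
Krt10 holds TATAAA starting 26 bases before the start, and Krt77 holds no match in this window. Over the same 250 bases of all 32851 promoters in the table, 12.4% hold this motif on either strand, and 17 of the 37 promoters listed for 36 keratin genes do (45.9%). A match is only a stretch of letters.

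Of 4 keratins of the activated epidermis and outer follicle, Krt79, made in the hair canal, was the only one to pass, and only in lncKO. It read 47927, 50236 and 54510 in wild type, 76374, 75388 and 91330 in lncKO and 68506, 79132 and 67857 in miR-205 KO. All knockout arrays were above all wild-type arrays. The change in lncKO was 0.67 ± 0.20 on the log2 scale (limma, adjusted p = 0.0404), but leaving out any 1 of the 6 arrays compared ended the call (0.0579 to 0.126), as did quantile normalization (0.119). In miR-205 KO the change was 0.50 ± 0.20 (adjusted p = 0.109). Krt75, of the companion layer, gave 0.81 ± 0.29 and 0.85 ± 0.29 (adjusted p = 0.0753 and 0.0591). Krt17 overlapped between wild type and lncKO, with 1432, 1513 and 924 in wild type, 1190, 1610 and 795 in lncKO and 1803, 1514 and 1801 in miR-205 KO.

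Krt16, a keratin of wounded and activated epidermis, turned on 1 array. It read 2669 on wild type 1 against 52 and 58 on wild type 2 and 3, 110, 136 and 199 in lncKO, and 216, 152 and 128 in miR-205 KO. With all arrays the changes were -0.48 ± 1.07 and -0.31 ± 1.07 on the log2 scale (limma, adjusted p = 0.803 and 0.871). Without wild type 1 they were 1.39 (adjusted p = 0.0134) and 1.56 (0.00773), so the direction turned. As for Krt1, this fit was singled out after the values were seen and is a description. Wild type 1 is the wild-type array that was also highest for Krt1 and for the pituitary genes.

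Inner root sheath keratins separated the wild-type arrays from each other. Krt71, a type II keratin of the sheath, read 1782 and 2968 on wild type 1 and 2 and 37 on wild type 3, against 38, 209 and 28 in lncKO and 60, 45 and 73 in miR-205 KO. Krt25, a type I keratin of the same layers, read 435, 1134 and 27 in wild type, 31, 55 and 20 in lncKO and 30, 40 and 29 in miR-205 KO. Wild type 3 therefore lay among the knockout arrays for both genes. Krt27 (387, 422 and 33 in wild type) and Krt28 (92, 169 and 13), both type I sheath keratins, were likewise highest on wild type 1 and 2. The mean log2 intensity of the 8 sheath keratins was 6.65 and 7.21 on wild type 1 and 2, 4.11 on wild type 3, and 3.98 to 4.86 on the 6 knockout arrays, with lncKO 5 the highest of these.

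**Figure D3:**
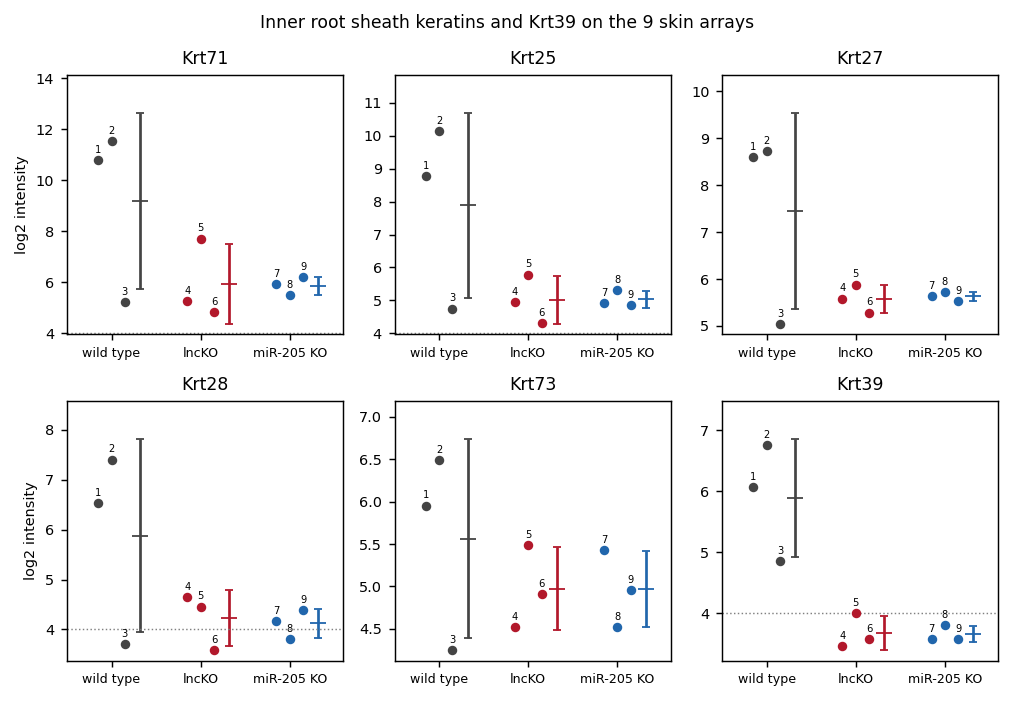
Log2 intensity on the 9 skin arrays of 5 inner root sheath keratins and the hair shaft keratin Krt39, each point an array with its sample number, bars showing the group mean and SD (n = 3); the dotted line marks an intensity of 16. Wild type 1 and 2 stand above all other arrays, while wild type 3 lies among the knockouts for Krt71, Krt25 and Krt28, below them for Krt27 and Krt73, and above them for Krt39.

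With all arrays, 1 of the 8 sheath keratins fell in each knockout. This was Krt72, which read 31, 33 and 9 in wild type and 6 to 9 on the 6 knockout arrays, and whose change of -1.67 in lncKO was -0.67 with a floor at 16 (limma, adjusted p = 0.173). In miR-205 KO the change of Krt72 was -1.40, and -0.67 with the floor (0.165), and leaving out any 1 of the miR-205 KO arrays (0.0618 to 0.0931), wild type 1 (0.0978) or wild type 2 (0.111) ended the call. In lncKO it was lost without lncKO 4 (0.0519), wild type 1 (0.0501) or wild type 2 (0.0565). Krt71 gave changes of -3.26 ± 1.23 and -3.32 ± 1.23 on the log2 scale and Krt25 of -2.87 ± 0.95 and -2.86 ± 0.95, none of them past the threshold (adjusted p = 0.0556 to 0.0914). Without wild type 3, 7 of the 8 passed as lower in each knockout, Krt71 by -5.25 and -5.30, and 21 of the 49 keratins were called in each comparison (42.9%), against 12.1% of all probe sets in lncKO and 12.7% in miR-205 KO in the same fits. Called as lower were 7.49% and 7.8% of all probe sets. This fit was singled out after the values of wild type 3 were seen, so these counts are a description. Outside the family, the root sheath protein gene Tchh read 3050 and 2692 on wild type 1 and 2, 85 on wild type 3 and 55 to 229 on the knockout arrays, and the 50 keratin-associated protein genes had a mean log2 intensity of 7.75, 8.38 and 5.61 in wild type and 4.76 to 5.52 in the knockouts. The regulator genes Foxn1 (44, 156 and 48 in wild type) and Lef1 (45, 81 and 56), active in hair follicles, did not follow this order of arrays. Lef1 was still called lower in lncKO (24, 27 and 38, limma, adjusted p = 0.0193). Among the wild-type and lncKO arrays, the listed regulator Dlx3 was highest on wild type 1 and 2 (238, 577 and 104 against 70, 71 and 82). Hoxc13 was too, at low readings (13, 24 and 11 against 6, 7 and 7). The stage of the hair cycle is not labelled, and its part in these values was not tested.

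The upstream sequences of 3 sheath keratins are shown because their levels moved together over the arrays. They lie on the minus strand of GRCm38.p6 at chr15:101743098-101743347, chr11:99322952-99323201 and chr11:99351119-99351368, and the capitals mark TATAAA.
Krt71: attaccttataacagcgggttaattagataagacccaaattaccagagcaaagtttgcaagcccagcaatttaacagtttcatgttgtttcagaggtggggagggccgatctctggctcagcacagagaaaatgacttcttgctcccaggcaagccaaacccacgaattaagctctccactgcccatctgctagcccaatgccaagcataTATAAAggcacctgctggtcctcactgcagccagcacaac
Krt25: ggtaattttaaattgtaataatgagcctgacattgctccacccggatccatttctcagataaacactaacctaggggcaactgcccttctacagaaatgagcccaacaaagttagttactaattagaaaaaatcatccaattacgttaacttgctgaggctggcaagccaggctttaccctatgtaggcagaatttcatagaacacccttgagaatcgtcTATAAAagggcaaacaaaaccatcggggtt
Krt27: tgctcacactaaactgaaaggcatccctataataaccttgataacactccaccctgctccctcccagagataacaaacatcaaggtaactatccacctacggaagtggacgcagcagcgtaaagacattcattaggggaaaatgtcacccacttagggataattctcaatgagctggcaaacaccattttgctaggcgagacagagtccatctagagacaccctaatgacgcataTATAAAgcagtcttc
The motif starts 40, 30 and 15 bases before the RefSeq start in Krt71, Krt25 and Krt27. All 7 sheath keratins with a promoter in the table hold it, as do 6 of 9 hair shaft keratins, where 12.4% of all promoters do. CTTTGA, the core of the site of LEF1 and TCF factors, was found on either strand in 1 of the 7 sheath and 5 of the 9 shaft promoters, against 13.8% of all promoters. GCCNNNGGC, an AP-2 site, and TGANTCA, an AP-1 site, were found in 0 of these 16 windows, against 13.7% and 6.75% of all promoters. No peak or methylation data bear on these windows.

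Hair shaft keratins were low throughout, and wild type 1 and 2 were again the highest for most of them. Of 12 measured, 2 fell in lncKO and 3 in miR-205 KO. Krt39, a type I hair keratin, read 67, 108 and 29 in wild type, 11, 16 and 12 in lncKO and 12, 14 and 12 in miR-205 KO. Here wild type 3 too lay above all knockout arrays. Krt39 fell by 2.21 ± 0.37 on the log2 scale in lncKO (limma, adjusted p = 0.0026) and fell by 2.23 ± 0.37 in miR-205 KO (0.00241). Its knockout readings were at or below 16, and with a pseudocount of 16 the changes shrank to -1.42 and -1.43 but still passed (0.0185 and 0.0163).

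The other shaft keratins that passed did so in 1 line each. Krt34 was lower in lncKO (adjusted p = 0.0416), with 21, 30 and 11 in wild type against 9, 11 and 8. Krt31 (35, 82 and 14 in wild type against 11, 11 and 13) and Krt33a (23, 37 and 13 against 10 on each array) were lower in miR-205 KO (adjusted p = 0.0396 and 0.0261). A floor at 16 ended these 3 calls (0.238 to 0.247), and so did leaving out any 1 of the knockout arrays compared, wild type 1 or wild type 2 (0.0573 to 0.15). The difference between the lines was not past the threshold for any of them. Without wild type 2 the log2 change of Krt31 was -0.93, against -1.56 with all arrays. Krt33b and Krt86 did not pass, with 56, 24 and 13 and with 59, 165 and 27 in wild type. Without wild type 3, 8 of the 12 shaft keratins passed as lower in each knockout, beside the 7.49% and 7.8% of all probe sets given above.

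Krt8, the type II keratin of simple epithelia, had the lowest adjusted p of the family in both knockouts. It read 36, 62 and 25 in wild type, 200, 266 and 191 in lncKO and 262, 245 and 292 in miR-205 KO. Every knockout array was above every wild-type array by more than 3 times. Krt8 rose by 2.50 ± 0.30 on the log2 scale in lncKO (5.67 times, limma, adjusted p = 0.00032) and by 2.80 ± 0.30 in miR-205 KO (6.95 times, 0.000167). The call held in each alternative run, including each fit without 1 array and the fit with a floor at 16 (adjusted p = 0.0087 and 0.00652).

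Its type I partner did not rise with it. Krt18 read between 9 and 20 on all 9 skin arrays, with log2 changes of 0.23 ± 0.30 and -0.16 ± 0.30. Krt20, which with Krt8 and Krt18 marks Merkel cells, the touch receptor cells of the epidermis, read 12, 16 and 16 in wild type, 19, 49 and 23 in lncKO and 18, 22 and 15 in miR-205 KO (adjusted p = 0.0664 and 0.533). Krt19, a type I keratin of simple epithelia and of the follicle bulge, went the other way, with 22, 43 and 26 in wild type, 12, 8 and 8 in lncKO and 17, 9 and 8 in miR-205 KO. Krt19 fell by 1.67 ± 0.33 on the log2 scale in lncKO (adjusted p = 0.00587) and fell by 1.44 ± 0.33 in miR-205 KO (0.0112), to -0.86 and -0.83 with a floor at 16, which ended both calls (0.0644 and 0.0683). Krt7 and Krt23 overlapped between wild type and each knockout.

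The upstream sequence of Krt8 is shown because its call held in each alternative run, as did the skin calls of Krt12 and Krt39. It lies on the minus strand at chr15:102004343-102004592 of GRCm38.p6 and holds none of the 4 motifs searched.
Krt8: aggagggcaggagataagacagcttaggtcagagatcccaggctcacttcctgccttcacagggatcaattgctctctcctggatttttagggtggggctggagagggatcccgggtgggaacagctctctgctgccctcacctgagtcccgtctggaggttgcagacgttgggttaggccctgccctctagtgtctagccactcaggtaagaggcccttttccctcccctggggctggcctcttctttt

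Of 6 keratins of other epithelia, Krt12 and Krt42 rose in both lines. Krt12, known as the keratin of the cornea, read 82, 85 and 141 in wild type, 325, 284 and 243 in lncKO and 240, 233 and 232 in miR-205 KO. The groups were separate, and Krt12 rose by 1.50 ± 0.24 (limma, adjusted p = 0.00207) and 1.24 ± 0.24 (0.00554) on the log2 scale. Krt42, a type I keratin, read 28, 35 and 28 in wild type, 97, 66 and 45 in lncKO and 61, 69 and 74 in miR-205 KO. It rose by 1.13 ± 0.27 (adjusted p = 0.0146) and 1.17 ± 0.27 (0.0118), and the lncKO call was lost without lncKO 4 (0.85, adjusted p = 0.0561). Krt24 gave -0.40 ± 0.29 and -0.78 ± 0.29 and Krt80 0.10 ± 0.24 and 0.21 ± 0.24, none past the threshold. Krt4 and Krt13, of the mouth and oesophagus, read 23 or less on all skin arrays.

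**Figure D4:**
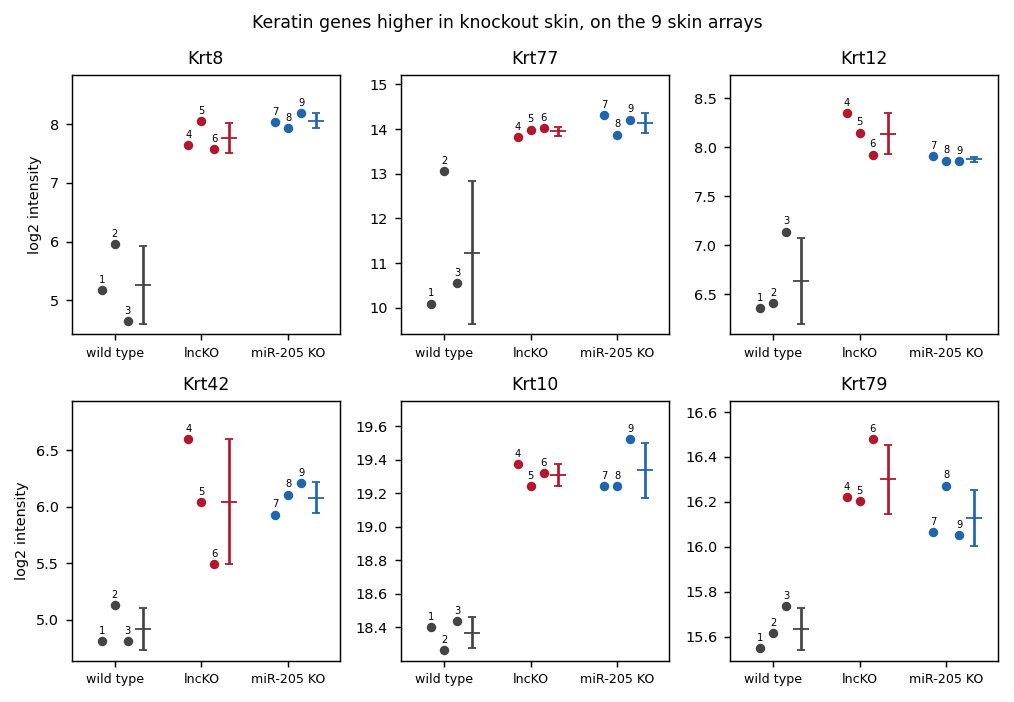
Log2 intensity on the 9 skin arrays of the 6 keratin genes that passed as higher in lncKO skin, each point an array with its sample number, bars showing the group mean and SD (n = 3). For each gene the 6 knockout arrays lie above the 3 wild-type arrays. The genes were picked by their lncKO call, so this separation is no further support for it. Krt79 did not pass in miR-205 KO.

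The direct comparison of the knockouts asked whether loss of the noncoding RNA and loss of the microRNA differ. Of the 49 keratins, 0 differed past the limma threshold between the skin of the 2 lines, and 0% of all probe sets were (637 probe sets had an unadjusted p under 0.05). The intervals bound what could have been missed. The 95% interval of the log2 difference, lncKO minus miR-205 KO, was -0.94 to 0.35 for Krt8, -0.45 to 0.40 for Krt10, -0.26 to 0.79 for Krt12, -0.78 to 0.83 for Krt39 and -1.37 to 1.00 for Krt77. Krt32, a hair shaft keratin, had a difference of 0.71 ± 0.25 and an interval of 0.16 to 1.25, with 20, 19 and 19 in lncKO and 15, 10 and 11 in miR-205 KO (adjusted p = 1).

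Other genes of the keratin system moved in both directions in skin. Of 12 genes for filament linkers and binding partners measured, 2 rose and 4 fell in lncKO and 2 rose and 2 fell in miR-205 KO. For this and the next lists, the background is again 6.21% higher and 9.17% lower of all probe sets in lncKO, and 6.79% and 10% in miR-205 KO. Evpl, the envoplakin gene, rose by 1.43 ± 0.25 and 1.54 ± 0.25 on the log2 scale (limma, adjusted p = 0.00329 and 0.0022), whereas Jup, the plakoglobin gene of desmosomes, fell by 1.29 ± 0.27 and fell by 1.22 ± 0.27 (0.00822 and 0.0101). Flg2, a filaggrin family gene, rose by 0.81 ± 0.20 and 0.64 ± 0.20 (0.0163 and 0.0421). Of 14 transcription factor genes listed as regulators of keratin genes, 0 rose, 6 fell in lncKO and 4 fell in miR-205 KO. Cebpb and Cebpa, regulators of keratinocyte differentiation, fell by 2.17 ± 0.26 and fell by 2.01 ± 0.27 in lncKO (0.000368 and 0.000695) and fell by 1.95 ± 0.26 and fell by 1.72 ± 0.27 in miR-205 KO (0.000668 and 0.00189). Of 10 other cytoplasmic intermediate filament genes, 1 rose and 3 fell in each. The muscle filament gene Synm rose by 1.15 ± 0.27 and 1.62 ± 0.27 (0.0133 and 0.00224), and the neurofilament gene Nefl fell by 2.04 ± 0.21 and fell by 1.81 ± 0.21 (0.000154 and 0.000282), from 29, 32 and 38 in wild type to between 7 and 10 on the knockout arrays.

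In pituitary 1 keratin passed. Krt19 read 15, 10 and 10 in wild type, 51, 36 and 33 in lncKO and 14, 19 and 17 in miR-205 KO. All lncKO arrays were above the arrays of both other groups. Krt19 rose by 1.78 ± 0.23 on the log2 scale in lncKO against wild type (limma, adjusted p = 0.0084), which makes 1 of 49 keratins (2.04%) where 0.7% of all probe sets were called, 0.342% as higher. The call was lost without wild type 12 (1.68, adjusted p = 0.0505) and with a floor at 16 (1.30, adjusted p = 0.0586), and a pseudocount of 16 gave 1.01 (adjusted p = 0.0174). Against miR-205 KO it was higher by 1.25 ± 0.23 (adjusted p = 0.0486), where 0.291% of all probe sets were called, 0.138% as higher. Leaving out any 1 of the 6 arrays compared ended that call (0.0793 to 0.166). In the same lncKO arrays Dsp, the desmoplakin gene whose protein anchors keratin filaments, rose by 1.45 ± 0.23 (adjusted p = 0.0155), the 1 of 12 linker genes to pass, while 0 of the 14 regulator genes and 0 of the 10 other filament genes did. In miR-205 KO pituitary 0 genes of these 3 lists passed.

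**Figure D5:**
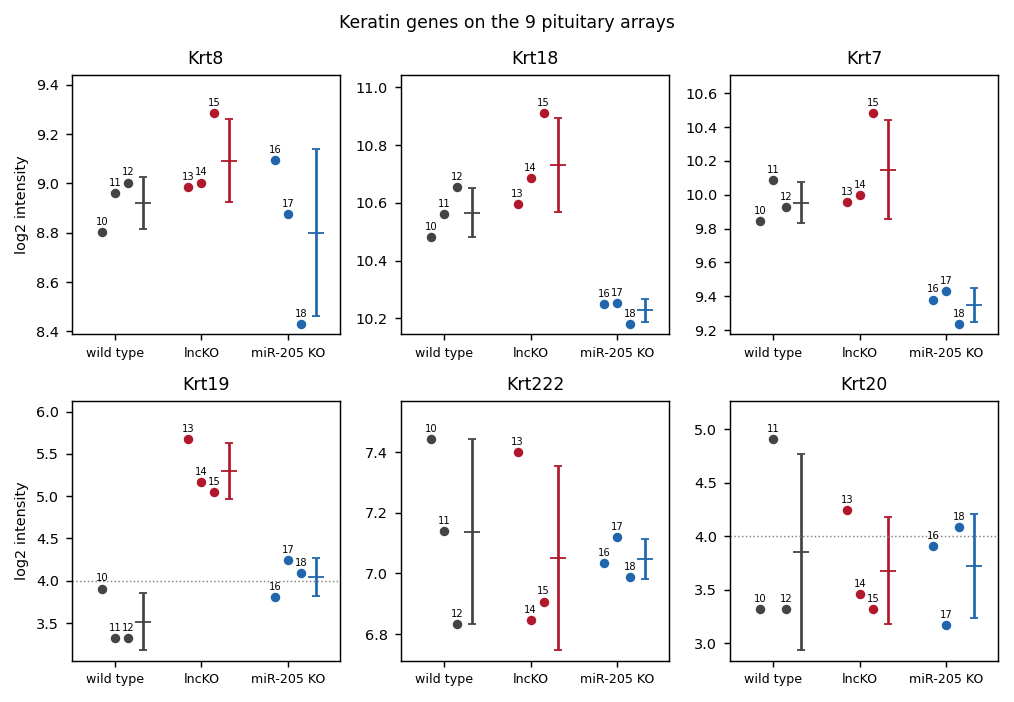
Log2 intensity on the 9 pituitary arrays of 6 keratin genes, each point an array with its sample number, bars showing the group mean and SD (n = 3); the dotted line marks an intensity of 16. Krt19 is higher on the 3 lncKO arrays, and Krt7 and Krt18 are lowest on the 3 miR-205 KO arrays without passing the threshold.

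The keratins that were higher in the gland than in skin did not pass between pituitary genotypes. In miR-205 KO pituitary 0 of the 49 were called, where 0.107% of all probe sets were, and 1462 probe sets had an unadjusted p under 0.05. Krt7 read 919, 1086 and 974 in wild type, 995, 1024 and 1432 in lncKO and 666, 690 and 603 in miR-205 KO. Krt18 read 1431, 1512 and 1612 in wild type, 1547, 1647 and 1926 in lncKO and 1217, 1221 and 1161 in miR-205 KO. For both genes the miR-205 KO arrays lay below the other 6, with changes against wild type of -0.60 ± 0.18 and -0.34 ± 0.16 on the log2 scale that did not pass (limma, adjusted p = 0.459 and 0.678). Krt8 overlapped across the 3 genotypes, with 446, 498 and 513 in wild type, 507, 513 and 624 in lncKO and 547, 470 and 345 in miR-205 KO. Krt222 ran from 114 to 174 over the 9 arrays and Krt20 from 9 to 30, both without separation of the groups. The knockout effect was also compared between the tissues with an interaction term. This passed for 6 keratins in each line, 12.2% of the 49, where 9.25% (lncKO) and 9.95% (miR-205 KO) of all probe sets passed.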

How the data were processed

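Per the labels' protocols, RNA was extracted from frozen tissue with a column kit and labelled as cDNA for Affymetrix Clariom S arrays. The deposited table gives, for each array, a linear intensity per probe set. Its 22206 probe sets have array medians of 82 to 96. The sources used here do not give the authors' background correction, summarisation or normalization. Intensities were log2 transformed without a pseudocount and were not normalized again. Limma 3.58.1 in R 4.3.3 (lmFit and eBayes, default settings, two-sided) was fitted to the 9 arrays of a tissue with a term per group, or to all 18 arrays for contrasts between tissues. P-values were Benjamini-Hochberg adjusted over the 19572 probe sets with a symbol, all of which matched a RefSeq gene ID of GRCm38.p6, with a threshold of 0.05. Errors of changes are standard errors, n = 3 arrays per group. As separate mice are not named, p-values reflect only how these samples vary, possibly for technical reasons, and the number of arrays limits the precision. No probe set was filtered out; in skin 38 of the 49 keratins read above 16 on at least 3 arrays, and in pituitary 23. Values were given for keratins past the threshold in a comparison of genotypes and for a fixed set of well-known keratins; other keratins given by value, such as Krt7 and Krt27, were chosen after their values were seen. The members, roles, lists and promoters shown were chosen with earlier results of these data known. The code was tested on simulated data. Krt15 in miR-205 KO skin is not reported here, and Krt15 is left out of the plots. Krt6a, Krt6b and Krt85 were not analysed here.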

Additional observations from a re-analysis of the deposited data

Results flagged for a closer look

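The knockout effect differed between pituitary and skin for 6 keratins in each line, by an interaction term in limma over all 18 arrays. That was 12.2% of the 49, near the 9.25% (lncKO) and 9.95% (miR-205 KO) of all probe sets. In these contrasts tissue cannot be told apart from the sex of the mice. For Krt8, which rose in skin and read 345 to 624 in pituitary, the log2 effect in pituitary minus that in skin was -2.33 ± 0.37 in lncKO (adjusted p = 0.000713) and -2.92 ± 0.37 in miR-205 KO (0.000105). For Krt77 it was -2.80 ± 0.66 and -2.99 ± 0.66 (0.0124 and 0.00813), and for Krt12 -1.65 ± 0.29 and -1.15 ± 0.29 (0.00173 and 0.0176). Krt77 read 15 or less on the pituitary arrays and Krt12 read 44 to 69. For Krt19, lower in knockout skin and higher in lncKO pituitary, the difference was 3.45 ± 0.42 in lncKO (7.28e-05) and 1.97 ± 0.42 in miR-205 KO (0.00639, but 0.0583 with a floor at 16). With that floor the lncKO difference of Krt19 shrank to 2.16 and still passed (0.000935). For Krt39 the difference was 2.31 ± 0.49 and 2.40 ± 0.49 (0.00589 and 0.00449), and 1.48 and 1.54 with a pseudocount of 16 (0.0186 and 0.0146). Krt79 was flagged in lncKO with -0.87 ± 0.27 (0.0477), a call lost without any one of 11 of the 12 arrays (0.0526 to 0.125), and Krt42 in miR-205 KO with -1.30 ± 0.33 (0.0173).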

How the results depend on the processing

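No paired analysis was possible because no sample number recurs between groups. The alternatives were chosen with earlier results of these data known. In skin the count of keratins called was 10 in each knockout. In lncKO the floor at 16 gave 6, against 21 with all 18 arrays in one fit. In miR-205 KO the count was 23 with all 18 arrays. Over all 19572 probe sets the calls moved with these settings too. They went from 3009 to 1937 (floor) and 4404 (all 18 arrays) in lncKO, and from 3293 to 4655 (all 18 arrays) in miR-205 KO. Leaving out 1 array gave 7 to 21 keratins in both, the highest without wild type 3 and the lowest without lncKO 4, and without miR-205 KO 7 or 8. Without wild type 3, 12.1% (lncKO) and 12.7% (miR-205 KO) of all probe sets were called. Between the skin knockouts and in miR-205 KO pituitary the count was 0 in each fit without 1 array. In lncKO pituitary the single call gave 0 with the floor, and 0 to 1 without 1 array. Over all probe sets the floor cut the calls there from 137 to 11. Against miR-205 KO pituitary the keratin count was 0 with the floor, the pseudocount of 16, only the groups compared, all 18 arrays or adjustment over all probe sets, 2 with a variance trend and robust estimation, and 0 to 0 without 1 array. Over all probe sets the calls were 57 in the main fit, 18 with the floor and 161 with the variance trend. Between wild-type tissues the count of 40 ranged from 36 to 40 without 1 array, was 35 with only the groups compared and 37 with the floor, and was 33 of 39 tested with the filter on low values. Over all probe sets 10202 were called in the main fit, 9544 with only the groups compared and 9877 with the floor. For the interactions the count of 6 ranged from 5 to 17 (lncKO) and from 6 to 17 (miR-205 KO) without 1 array, 17 without wild type 3 of skin. The share of all probe sets called in those interaction fits is not given here, so these counts say nothing particular about keratins. Without 1 array, Krt16 ranged from -1.45 to 1.39 in lncKO skin and from -1.29 to 1.56 in miR-205 KO skin, and for the interactions from -1.42 to 1.42 and from -1.56 to 1.28, with the turn of direction in the fit without wild type 1 of skin. For single keratins, 3390 values kept their state as called or not called, 88 lost a call, 61 gained one and 4 reversed direction. The 3390 include values not called in either fit, so they do not measure how stable the calls were. The cause of these shifts was not tested. Low readings limit most hair keratins, which lie near an intensity of 16.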
